A study of Mus musculus with 15 samples.

Results

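The mRNA levels of 10 receptors through which the brain reads signals of hunger and satiety were followed in 15 RNA-Seq libraries of mouse tissues. The 10 genes were the leptin receptor Lepr, the ghrelin receptor Ghsr, the melanocortin receptors Mc3r and Mc4r, the neuropeptide Y receptors Npy1r, Npy2r and Npy5r, the orexin (hypocretin) receptors Hcrtr1 and Hcrtr2, and the melanin-concentrating hormone receptor Mchr1. Their loci were found by gene symbol and were 11 of the 23589 loci with a gene name (33603 loci in all). The 10 genes were chosen with earlier results of these data known. Each symbol stood on 1 locus, except Hcrtr2, which stood on 2 loci of opposite strands. The locus on the annotated (minus) strand was used for it. On the plus strand, Hcrtr2 had at most 1 count in a library outside the liver, and 8, 4 and 10 counts in the liver.

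The mice were male C57BL/6. AL mice ate ad libitum and were taken at 5 months of age. DR mice were placed on 40% dietary restriction (60% of the food that AL mice ate) at 4 months of age for 1 month, and were also taken at 5 months. DR-AL mice had the same month of restriction, returned to ad libitum feeding for 2 months and were taken at 7 months, so refeeding and the older age cannot be told apart in any comparison of DR-AL mice. For each diet, RNA from 5 mice was pooled into 1 library per tissue, in hypothalamus, hippocampus, liver, epididymal fat and colon (intestinal mucosa). A comparison of diets within a tissue was therefore a comparison of 2 libraries without a replicate.

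Appetite is set by signals that reach the hypothalamus from fat, gut and other neurons. Leptin from fat and melanocortins made from proopiomelanocortin (Pomc) restrain feeding, whereas ghrelin from the stomach, neuropeptide Y (Npy), agouti-related peptide (Agrp, which blocks the melanocortin receptors) and melanin-concentrating hormone promote it, and orexins couple feeding with wakefulness. Lepr is a cytokine-type receptor that signals through Jak2 and Stat3, and the other receptors couple to G proteins.

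Levels are given as CPM, the deposited raw counts of a library scaled to the same total over its named loci, and as the deposited FPKM where genes are compared with each other. A difference between 2 libraries is a log2 fold change of counts brought to 1 common total within a tissue, with 0.5 added, and the interval behind it is an exact 95% interval (Clopper-Pearson) that covers counting error only. A gene is called higher or lower where the pairwise Z test of the study's methods gave a Benjamini-Hochberg adjusted p under 0.05 over all genes tested in the tissue and the higher level was at least 25% above the lower. The Z test takes the square root of each library's share of counts as normal and knows counting error alone, so a call is about 2 libraries, not 2 diets, and is given without a p-value. At very low counts it is less strict than the exact interval: the 3 calls of receptor genes on 4 counts against 0, all in the colon, have intervals that include no difference. Totals on named loci ran from 21767088 to 40500130 counts per library, with a median of 26554699. A count of 0 allows up to 3 counts, which is 0.0741 to 0.138 CPM in these libraries. In tissue RNA, fewer cells of a type and less of an mRNA per cell cannot be told apart.

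The upstream sequence is shown first for 5 of the 7 genes called lower in the DR-AL than in the AL hypothalamus. Npy1r and Hcrtr2, also called lower there, are not shown. The windows are from RefSeq on GRCm38.p6, 5′ to 3′ on the strand of the gene, and end at the annotated start of transcription or before the first base annotated as exon. Lepr is on the plus strand at chr4:101717157-101717403, Ghsr on the plus strand at chr3:27371101-27371350, Mc3r on the plus strand at chr2:172248242-172248491, Npy2r on the minus strand at chr3:82548086-82548335 and Npy5r on the minus strand at chr8:66688129-66688344. In GENCODE M21 on GRCm38, Lepr spans chr4:101717404-101815352, Ghsr chr3:27371351-27378010, Mc3r chr2:172248492-172251114 in 1 exon, and Npy2r chr3:82538383-82548084. Capitals mark matches, on either strand, to the E box CACGTG, the nuclear receptor site AGGTCA and the GC box GGGCGG.
Lepr: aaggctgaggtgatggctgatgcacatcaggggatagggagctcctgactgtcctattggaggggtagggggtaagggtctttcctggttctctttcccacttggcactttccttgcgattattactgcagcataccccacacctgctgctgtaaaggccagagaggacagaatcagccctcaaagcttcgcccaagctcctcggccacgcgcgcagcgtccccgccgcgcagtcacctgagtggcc
Ghsr: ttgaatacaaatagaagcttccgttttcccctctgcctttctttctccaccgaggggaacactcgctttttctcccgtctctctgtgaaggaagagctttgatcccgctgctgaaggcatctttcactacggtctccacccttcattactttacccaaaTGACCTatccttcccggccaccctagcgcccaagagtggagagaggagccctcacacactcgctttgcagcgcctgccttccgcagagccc
Mc3r: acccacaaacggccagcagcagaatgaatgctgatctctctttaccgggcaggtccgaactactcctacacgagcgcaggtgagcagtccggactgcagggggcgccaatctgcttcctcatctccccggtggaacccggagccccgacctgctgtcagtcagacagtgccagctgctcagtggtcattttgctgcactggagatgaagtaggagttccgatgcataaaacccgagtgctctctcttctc
Npy2r: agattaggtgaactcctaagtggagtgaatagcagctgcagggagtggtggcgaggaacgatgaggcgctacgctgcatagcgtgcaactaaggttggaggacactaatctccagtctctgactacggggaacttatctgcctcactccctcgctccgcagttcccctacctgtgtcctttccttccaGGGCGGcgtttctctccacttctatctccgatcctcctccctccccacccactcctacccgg
Npy5r: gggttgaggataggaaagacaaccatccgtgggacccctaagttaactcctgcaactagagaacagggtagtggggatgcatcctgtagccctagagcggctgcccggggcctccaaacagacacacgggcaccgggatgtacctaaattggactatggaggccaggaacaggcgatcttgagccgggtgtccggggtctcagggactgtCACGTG
The promoter table held 12 start sites for 9 of the 10 genes. In their 250 bases before the start site, CACGTG was found for Npy5r and Mchr1 and stood in 6.02% of all 32851 windows of this length. AGGTCA was found for Ghsr, Hcrtr1 and Hcrtr2 (14.0% of all windows), and GGGCGG for Npy2r and the downstream start site of Lepr (32.7%). Matches to TGACG (17.8% of all windows), TTCNNNGAA (7.02%) and TATAAA (12.4%) were present in none of the 12 windows. None of these motifs was shared by all the genes called lower in the DR-AL than in the AL hypothalamus.

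In the hypothalamus, 7 of the 10 receptor genes were lower in the DR-AL library than in the AL library, and none was higher. Mc3r, Lepr and Ghsr differed most, followed by Npy2r, Npy5r, Npy1r and Hcrtr2. Mc4r, Hcrtr1 and Mchr1 differed by 0.04 or less on the log2 scale. Over all 19320 genes tested, 9.02% were called lower and 6.06% higher in this comparison, and among the 12869 that averaged 100 counts or more, as all 10 receptor genes did, 9.09% were called lower. The median log2 fold change was -0.58 over the 10 genes and -0.03 over all genes tested.

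**Figure D1:**
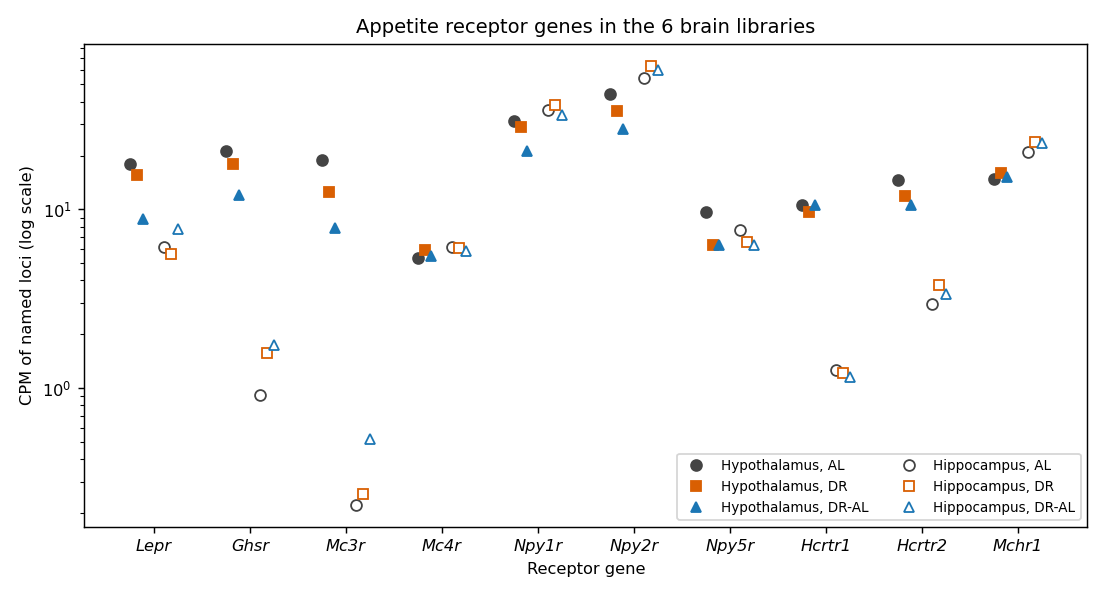
Level of each receptor gene (x axis) in CPM of named loci on a log scale (y axis), with 1 point per library of pooled RNA; filled points are hypothalamus, open points hippocampus, and circles, squares and triangles are AL, DR and DR-AL. CPM is not per length, so points are to be compared within a gene: in the hypothalamus the triangle lies below the circle for 7 genes, and Lepr, Ghsr, Mc3r, Hcrtr1 and Hcrtr2 lie lower in every hippocampus library than in any hypothalamus library.

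Lepr, the receptor through which leptin reports fat stores, had 533 counts (18.0 CPM) in the AL hypothalamus, 512 (15.6 CPM) in the DR and 277 (8.88 CPM) in the DR-AL library. The AL and DR libraries lay close together and the DR-AL library was apart from both. The log2 fold change of DR-AL against AL was -1.02 (interval -1.23 to -0.80), a 2.02-fold lower level, and that of DR against AL was -0.20 (-0.38 to -0.02), which was not called. The deposited locus does not separate the long signalling form of the receptor from its short forms.

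Ghsr, the receptor of ghrelin, had 626 counts (21.1 CPM) in the AL, 585 (17.9 CPM) in the DR and 377 (12.1 CPM) in the DR-AL hypothalamus. It showed the same order of libraries as Lepr. DR-AL was lower than AL by -0.80 on the log2 scale (interval -0.99 to -0.62), and DR differed from AL by -0.24 (-0.40 to -0.07), which was not called.

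The melanocortin receptors parted. Mc3r, found mainly on neurons of the medial hypothalamus, had 559 counts (18.8 CPM) in the AL, 410 (12.5 CPM) in the DR and 245 (7.85 CPM) in the DR-AL library. It was the only receptor gene called lower in every comparison of hypothalamus libraries. Its log2 fold changes were -0.59 for DR against AL (interval -0.78 to -0.40), -1.26 for DR-AL against AL (-1.49 to -1.04) and -0.67 for DR-AL against DR (-0.91 to -0.44). Mc4r, the receptor whose loss causes obesity in mice and humans, had 158 counts (5.32 CPM), 194 (5.92 CPM) and 171 (5.48 CPM) in the AL, DR and DR-AL libraries. Its 3 levels overlapped within counting error, with log2 fold changes of 0.15 (-0.16 to 0.47) for DR and 0.04 (-0.28 to 0.36) for DR-AL against AL.

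All 3 neuropeptide Y receptors were lower in the DR-AL than in the AL hypothalamus. Npy1r, a postsynaptic receptor that promotes feeding, had 925 counts (31.2 CPM), 951 (29.0 CPM) and 660 (21.2 CPM) in the AL, DR and DR-AL libraries, a log2 fold change of -0.56 (interval -0.71 to -0.41) for DR-AL against AL. Npy2r, which acts as an autoreceptor on neurons that make Npy, had 1306 counts (44.0 CPM), 1159 (35.4 CPM) and 879 (28.2 CPM), a log2 fold change of -0.64 (-0.77 to -0.52). Both were called in DR-AL against DR as well, Npy1r with -0.46 and Npy2r with -0.33. The call of Npy2r lay at the fold threshold and was lost with the size factors of DESeq and with TMM factors, and TMM factors added a call of Npy2r in DR against AL. For Npy5r the difference was already there in DR: its 285 counts (9.60 CPM) in the AL library stood above 208 (6.35 CPM) in DR and 197 (6.31 CPM) in DR-AL. Npy5r was called lower in DR against AL by -0.60 (-0.86 to -0.33) and differed by -0.01 (-0.30 to 0.28) between DR-AL and DR.

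Npy5r and Npy1r are neighbours on chromosome 8, transcribed away from each other with 9063 bases between them (GENCODE M21 on GRCm38, Npy5r on the minus strand at chr8:66679965-66688128 and Npy1r on the plus strand at chr8:66697192-66706792). In DR against AL the log2 fold change was -0.60 for Npy5r and -0.10 (interval -0.23 to 0.03) for Npy1r, and the intervals of both genes did not overlap.

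The orexin receptors also parted. Hcrtr2, the form that dominates in the arousal system, had 432 counts (14.6 CPM), 390 (11.9 CPM) and 332 (10.6 CPM) in the AL, DR and DR-AL hypothalamus, and was called lower in DR-AL against AL by -0.45 (interval -0.66 to -0.24). Hcrtr1 had 312 counts (10.5 CPM), 316 (9.65 CPM) and 332 (10.6 CPM), and none of its differences was called. Mchr1, the only melanin-concentrating hormone receptor of rodents, had 440 counts (14.8 CPM), 522 (15.9 CPM) and 474 (15.2 CPM). Its log2 fold changes against AL were 0.10 (-0.08 to 0.29) for DR and 0.03 (-0.16 to 0.23) for DR-AL.

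**Figure D2:**
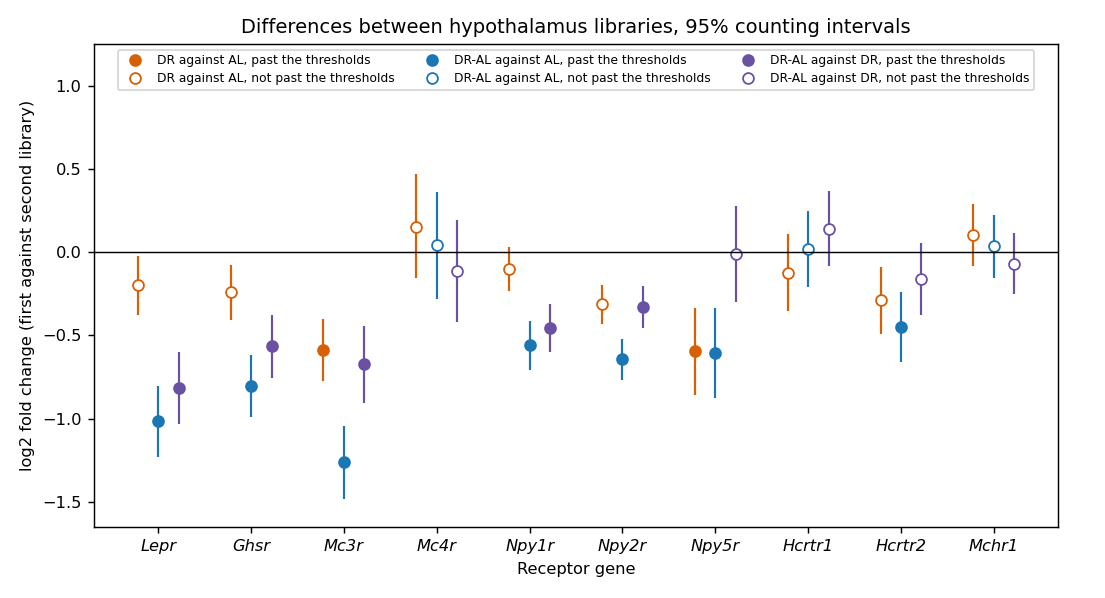
log2 fold change (y axis) of each receptor gene (x axis) between hypothalamus libraries, for DR against AL (orange), DR-AL against AL (blue) and DR-AL against DR (purple); lines are 95% counting intervals and filled points passed the thresholds of the Z test. The blue points of 7 genes are filled and below 0, from -0.45 for Hcrtr2 to -1.26 for Mc3r, and those of Mc4r, Hcrtr1 and Mchr1 are open and near 0.

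Under restriction alone, 2 of the 10 genes, Mc3r and Npy5r, were called lower in the hypothalamus and 0 were called higher. Over all genes tested, 2.72% were called lower and 4.33% higher in DR against AL, and 2.21% of those averaging 100 counts or more were called lower. The median log2 fold change was -0.22 over the 10 genes and 0.01 over all genes tested. In DR-AL against DR, 5 of the 10 were called lower (Lepr, Ghsr, Mc3r, Npy1r and Npy2r) and 0 higher, beside 6.8% lower and 2.82% higher among all genes, and 6.89% lower among those averaging 100 counts or more. The order AL above DR above DR-AL held for 7 of the 10 genes and for 28.1% of the 12869 genes averaging 100 counts or more. Differences of any size counted toward this order. A step of it lay within counting error for Npy5r (DR-AL against DR -0.01, interval -0.30 to 0.28) and Npy1r (DR against AL -0.10, -0.23 to 0.03). The same held for Hcrtr2 in DR-AL against DR (-0.16, -0.38 to 0.05). The AL library is shared by both comparisons against it, and the DR-AL library by both of its comparisons, so these counts are not independent of each other. The exact test of edgeR with an assumed coefficient of variation of 0.1 left fewer. It called 3 genes (Lepr, Ghsr and Mc3r) in DR-AL against AL, 1 (Lepr) in DR-AL against DR and 0 in DR against AL. With the coefficient estimated from the 3 hypothalamus libraries (0.123), 2 (Lepr and Mc3r), 0 and 0 were called. That estimate counts differences between the 3 diets as variation, so neither coefficient measures variation between pools.

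Per length, the order of the receptor genes in the AL hypothalamus was Npy2r (7.95 FPKM), Npy1r (6.23), Mc3r (4.19), Mchr1 (3.78), Hcrtr1 (2.80), Npy5r (2.72), Hcrtr2 (2.36), Ghsr (2.31), Lepr (1.56) and Mc4r (1.16). In the DR-AL hypothalamus Mc3r, at 1.83 FPKM, stood below Mchr1 (4.06), Hcrtr1 (2.97) and Npy5r (1.87), and Lepr, at 0.859 FPKM, stood below Mc4r at the bottom. In the AL library the neighbours Hcrtr1 and Npy5r, as well as Hcrtr2 and Ghsr, differed by less than each of these genes did over the 3 diets. In the same libraries the 3 genes with the most stable levels, Mc4r, Hcrtr1 and Mchr1, ranged from 1.16 to 1.26, 2.57 to 2.97 and 3.78 to 4.09 FPKM.

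Marker genes of the arcuate and ventromedial nuclei and of the pituitary had only lower calls in the same comparison as the receptor genes. The other lists of brain regions and brain cell types differed in the opposite or in both directions. In DR-AL against AL, 6 of 7 markers of the arcuate nucleus and 5 of 5 of the ventromedial nucleus were called lower and 0 higher. The marker lists were chosen with earlier results of these data known, so their counts, here and in other tissues, are not independent of the data. The summed level of the arcuate list was 294, 188 and 106 CPM in AL, DR and DR-AL, and that of the ventromedial list 282, 234 and 163 CPM. The arcuate sum includes 3 ligand genes described below: Pomc (100, 32.1 and 22.7 CPM), Npy (85.2, 75.1 and 25.3) and Agrp (14.8, 16.0 and 5.29). Nr5a1, the transcription factor that defines the ventromedial nucleus, was picked after its values were seen and had 43.7, 26.8 and 11.8 CPM. Of the lateral hypothalamus list 5 of 6 were called higher and 1 lower (279, 330 and 494 CPM). That sum includes the ligand genes Hcrt (22.9, 52.1 and 139 CPM) and Pmch, also described below. The thalamic neuron list had 4 of 7 called higher and 0 lower (545, 576 and 691 CPM). Of the telencephalic excitatory neuron list 7 of 9 were called higher and 1 lower (53.6, 118 and 112 CPM). The tanycyte and ependyma list had 1 of 6 called higher and 4 lower (183, 148 and 88.8 CPM). The pituitary list had 4 of 6 called lower and 0 higher (15.9, 24.6 and 3.97 CPM). The paraventricular list had 3 of 6 markers called higher and 2 lower (789, 629 and 502 CPM). The suprachiasmatic list had 2 of 6 higher and 2 lower (536, 375 and 230 CPM). Of the tuberomammillary and mammillary list 2 of 5 were higher and 1 lower (142, 120 and 72.4 CPM). The choroid plexus list had 1 of 7 higher and 4 lower (83.0, 76.4 and 58.1 CPM), and the striatal list 2 of 7 and 2 (234, 222 and 204 CPM). Of the hippocampal principal neuron list 2 of 8 were called higher and 5 lower (264, 196 and 167 CPM), and of the endothelial cell and pericyte list 3 of 7 higher and 0 lower (124, 145 and 162 CPM). No marker of these lists was at 0 in all 3 libraries. Among lists for peripheral tissues, 2 of 7 detected hepatocyte markers were called lower and 0 higher (10.7, 3.66 and 7.18 CPM). The adipocyte list had 1 of 7 lower and 0 higher (3.67, 2.87 and 2.69 CPM). Of the colon epithelium list 5 of 7 were lower and 1 higher (17.9, 9.62 and 11.1 CPM). The testis germ cell list had 1 of 4 detected markers higher and 0 lower, and the list of enteric neurons and enteroendocrine cells had 0 called. The part of tissue content in the levels of the receptor genes was not tested.

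**Figure D3:**
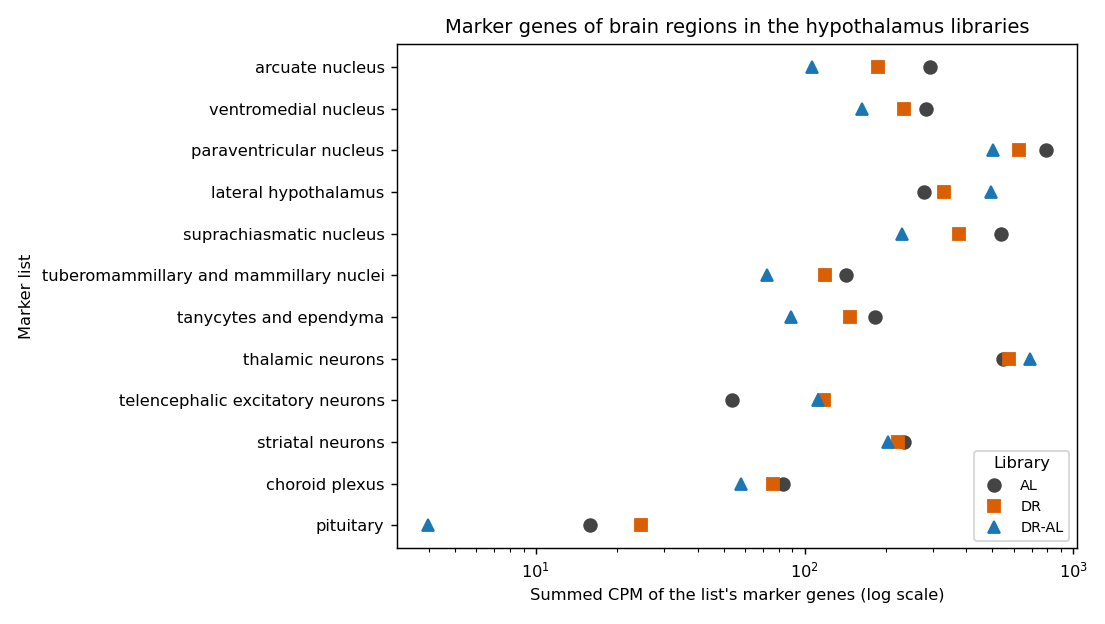
Summed level of the marker genes of each brain region or cell type (y axis) in the 3 hypothalamus libraries, in CPM on a log scale (x axis); circles, squares and triangles are AL, DR and DR-AL. The triangle lies to the left of the circle for the arcuate (106 against 294 CPM), ventromedial (163 against 282 CPM) and pituitary (3.97 against 15.9 CPM) lists. It also does for the suprachiasmatic (230 against 536 CPM), tuberomammillary and mammillary (72.4 against 142 CPM) and tanycyte (88.8 against 183 CPM) lists. The same holds for the paraventricular (502 against 789 CPM), choroid plexus (58.1 against 83.0 CPM) and striatal (204 against 234 CPM) lists. The triangle lies to the right of the circle for the lateral hypothalamus (494 against 279 CPM), thalamic and telencephalic lists. The arcuate sum includes the ligand genes Pomc, Npy and Agrp, and the lateral hypothalamus sum Hcrt and Pmch. The lists were chosen with earlier results of these data known.

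The ligands did not all move as their receptors did. Of 9 ligand genes measured in the hypothalamus, 2 were called higher in DR-AL against AL (Hcrt and Pmch) and 3 lower (Pomc, Agrp and Npy), and 2 were higher (Hcrt and Pmch) and 1 lower (Pomc) in DR against AL. Hcrt, the orexin precursor, had 22.9, 52.1 and 139 CPM in AL, DR and DR-AL, a log2 fold change of 2.60 for DR-AL against AL, while its receptors Hcrtr2 and Hcrtr1 stood at -0.45 and 0.02. Pmch, the precursor of melanin-concentrating hormone, had 141, 185 and 213 CPM, and its log2 fold change of 0.60 stood beside 0.03 for Mchr1. Pomc had 100 CPM, 32.1 and 22.7 CPM, a log2 fold change of -2.15 for DR-AL and -1.64 for DR against AL. Agrp had 14.8, 16.0 and 5.29 CPM and Npy 85.2, 75.1 and 25.3 CPM, so both were called lower in the comparisons with the DR-AL library and not in DR against AL, as was Lepr. Pomc, Agrp and Npy also stand in the arcuate marker list, and Hcrt and Pmch in that of the lateral hypothalamus.

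Downstream of Lepr, 5 of 14 genes of leptin receptor signalling were called lower and 0 higher in DR-AL against AL: Stat3, Stat5a, Socs3, Irs4 and Foxo1. Stat5a, a transcription factor activated by the receptor, had 10.3, 8.0 and 5.38 CPM in AL, DR and DR-AL (log2 fold change -0.94), and the adaptor Irs4 264, 187 and 148 CPM (-0.84). Of 16 genes of G protein coupling, 1 was called higher (Plcb4, a phospholipase C, 104 CPM in AL and 136 in DR-AL, 0.39) and 0 lower. Arrb1, which encodes a beta-arrestin, differed by 0.31 and was not called, nor were Creb1 (0.32 in DR against AL) and the inhibitory G protein subunit Gnai2 (-0.21 in DR-AL against DR). Of 11 peptide processing and receptor accessory genes measured, 1 was called lower, the amidating enzyme Pam (533 CPM in AL and 389 in DR-AL, -0.45), and Mrap2, an accessory protein of Mc4r and Ghsr, differed by 0.26 and was not called. Leprot, the upstream neighbour of Lepr, had 24.7, 24.8 and 20.9 CPM in AL, DR and DR-AL and was not called. The median log2 fold changes were -0.10, -0.05 and 0.01 for the 3 lists, beside -0.03 over all genes tested.

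Of 26 other receptors of appetite signals, 7 were called higher and 6 lower in DR-AL against AL, and 2 higher and 1 lower in DR against AL. Ramp3, which joins the calcitonin receptor to form an amylin receptor, had 2.76, 3.24 and 9.55 CPM in AL, DR and DR-AL (log2 fold change 1.78). Nmur2, a receptor of neuromedin U, had 4.92, 3.63 and 2.47 CPM (-0.99). In DR against AL, Glp1r, the receptor of glucagon-like peptide 1, was called lower by -0.57 and Galr1, a galanin receptor, higher by 0.49. The median log2 fold change of these 26 genes in DR-AL against AL was -0.07, against -0.58 for the 10 receptor genes described here.

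The hippocampus of the same groups of mice did not show this pattern. In DR-AL against AL, 1 of the 10 genes was called higher (Ghsr) and 0 lower, where 3.99% of all 18804 genes were called higher and 2.16% lower. In DR against AL 0 were called in either direction (1.36% of all genes higher and 2.67% lower), and in DR-AL against DR 1 was called higher (Lepr) and 0 lower (3.63% and 1.26%). The median log2 fold change in DR-AL against AL was 0.16 over the 10 genes and 0 over all genes tested.

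Lepr had 249 counts (6.15 CPM), 176 (5.64 CPM) and 195 (7.75 CPM) in the AL, DR and DR-AL hippocampus, so its DR-AL library was the highest here and the lowest in the hypothalamus. Its log2 fold change of DR-AL against DR was 0.46 (interval 0.16 to 0.76). Ghsr had 37 counts (0.914 CPM), 49 (1.57 CPM) and 44 (1.75 CPM), a log2 fold change of 0.93 (0.27 to 1.61) for DR-AL against AL. Neither call was kept when the exact test allowed for a coefficient of 0.1. Of the striatal neuron list, 7 of 7 markers were called higher and 0 lower in the DR-AL against the AL hippocampus (189, 181 and 350 CPM in AL, DR and DR-AL), and the same 7 were called higher in DR-AL against DR. Of the choroid plexus list, 7 of 7 were called higher in DR-AL against DR, in which Lepr was called, 7 of 7 lower in DR against AL and 0 in DR-AL against AL (2928, 1795 and 2853 CPM). In DR-AL against AL, the ventromedial list had 2 of 4 detected markers called higher and the paraventricular list 2 of 6. The arcuate list had 1 of 7 higher and the lateral hypothalamus list 1 of 6, with 0 lower in these lists. Of the endothelial cell and pericyte list 4 of 7 were higher and 0 lower. The telencephalic excitatory neuron list had 4 of 9 lower and the hippocampal principal neuron list 2 of 8, with 0 higher. The thalamic list had 1 of 7 higher and 3 lower. The part of these lists in the levels of Ghsr and Lepr was not tested.

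The difference of the DR-AL effect between both brain regions, hypothalamus minus hippocampus on the log2 scale, was -1.35 for Lepr (95% counting interval -1.69 to -1.01), -1.74 for Ghsr (-2.40 to -1.08), -2.48 for Mc3r (-3.73 to -1.23) and -0.79 for Npy2r (-0.94 to -0.63). It was -0.64 for Hcrtr2 (-1.09 to -0.19) and -0.47 for Npy1r (-0.66 to -0.28). For these 6 genes the interval lay below 0. It included 0 for Npy5r (-0.70 to 0.06), Mc4r (-0.31 to 0.55), Hcrtr1 (-0.55 to 0.84) and Mchr1 (-0.38 to 0.10). These intervals hold counting error of 4 libraries and no variation between pools. Mc3r rests on 8 to 13 counts in the hippocampus.

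A model over the 6 brain libraries used region and diet together, so that the 3 diets stood in for replicates of a region and both regions for replicates of a diet (edgeR's quasi-likelihood test with Benjamini-Hochberg adjustment over 15742 genes). Both regions of a diet came from the same mice, so they are not separate animals. In this model 9 of the 10 receptor genes differed between the regions: 5 were higher in the hypothalamus, where 34.6% of all genes were, and 4 were lower, where 33.4% of all genes were. Since about as large a share of all genes differed, the sizes of the differences are described rather than their number.

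Mc3r had the largest difference of the 10 genes, with a mean of 13.1 ± 5.51 CPM (SD over 3 diets) there and 0.332 ± 0.161 in the hippocampus (log2 difference 5.14, SE 0.37, edgeR adjusted p = 7.13e-05). Ghsr followed with 17.0 ± 4.57 and 1.41 ± 0.440 CPM (3.39, SE 0.30, edgeR adjusted p = 0.00015). Hcrtr1 (2.84, SE 0.13), Hcrtr2 (1.65, SE 0.16) and Lepr (0.86, SE 0.26) were also higher in the hypothalamus. Npy2r, with 59.2 ± 4.66 CPM in the hippocampus and 35.9 ± 7.93 in the hypothalamus, was lower in the hypothalamus by -0.97 (SE 0.14). Mchr1 (-0.80, SE 0.07), Npy1r (-0.65, SE 0.09) and Mc4r (-0.34, SE 0.11) were lower as well. Npy5r differed by -0.13 (SE 0.12, edgeR adjusted p = 0.353). The edgeR adjusted p was 0.0257 for Lepr and 0.0316 for Mc4r. Both were lost when any 1 of the 4 AL and DR libraries was left out, which left 7 genes called, and DESeq2 called 8 genes, without Mc4r.

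For a diet effect common to both regions, 0 of the 10 genes were called in DR against AL, with edgeR adjusted p-values from 0.945 upward, and 0.00635% of all genes (1 gene) were called. In DR-AL against AL 0 receptor genes were called by edgeR, where the lowest adjusted p was 0.536, and 0% of all genes (0 of 15742) were. At an unadjusted p under 0.05 stood 1 receptor gene (Npy5r) and 713 genes for DR, and 2 receptor genes (Npy1r and Npy5r) and 1363 genes for DR-AL. DESeq2 called 9 and 50 genes, with 0 receptor genes among them. The estimates for Npy5r were -0.41 (SE 0.14) for DR and -0.44 (SE 0.15) for DR-AL, and that for Npy1r was -0.31 (SE 0.11) for DR-AL. Without the DR-AL hippocampus library, which leaves the hypothalamus as the only source of the DR-AL effect, 2 receptor genes (Lepr and Mc3r) were called lower.

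Outside the brain, Lepr stood out in the liver, where it was the only receptor gene above 14 counts. It had 204 counts (8.25 CPM) in the AL, 173 (7.95 CPM) in the DR and 1282 (52.3 CPM) in the DR-AL library. AL and DR overlapped within counting error, and the DR-AL liver was the highest Lepr level of all 15 libraries on the CPM scale. DR-AL was 6.33-fold above AL (log2 fold change 2.66, interval 2.45 to 2.89) and 6.57-fold above DR (2.72, 2.49 to 2.96). Both calls were kept under each scaling, the stricter fold of 2 and the exact test of edgeR, also with the dispersion estimated from the 3 liver libraries. The soluble form of the leptin receptor, which the liver releases into blood, comes from this gene, and the deposited locus does not separate it.

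Leprot, a gene of endosomal trafficking that lies 58039 bases upstream of Lepr on the same strand in GENCODE M21, had 13.0, 15.7 and 18.7 CPM in the AL, DR and DR-AL liver. It was called higher in DR-AL against AL by 0.52 (interval 0.31 to 0.73), a smaller difference than that of Lepr. In the liver 1 of 7 measured hepatocyte markers was called higher and 1 lower in DR-AL against AL (44006, 44293 and 48825 CPM), with Alb listed at 0 in every library. The adipocyte list stood at 21.5, 25.5 and 88.9 CPM in the liver, with 3 of 7 called higher and 1 lower in DR-AL against AL. In DR-AL against DR, 1 of 7 was called higher (Cidec) and 1 lower (Adrb3). The part of this list in the level of Lepr was not tested. In the leptin receptor signalling list, 1 gene was called higher (Socs3, a feedback inhibitor that Stat3 induces) and 3 lower (Jak2, Stat5a and Foxo1) in the DR-AL against the AL liver.

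**Figure D4:**
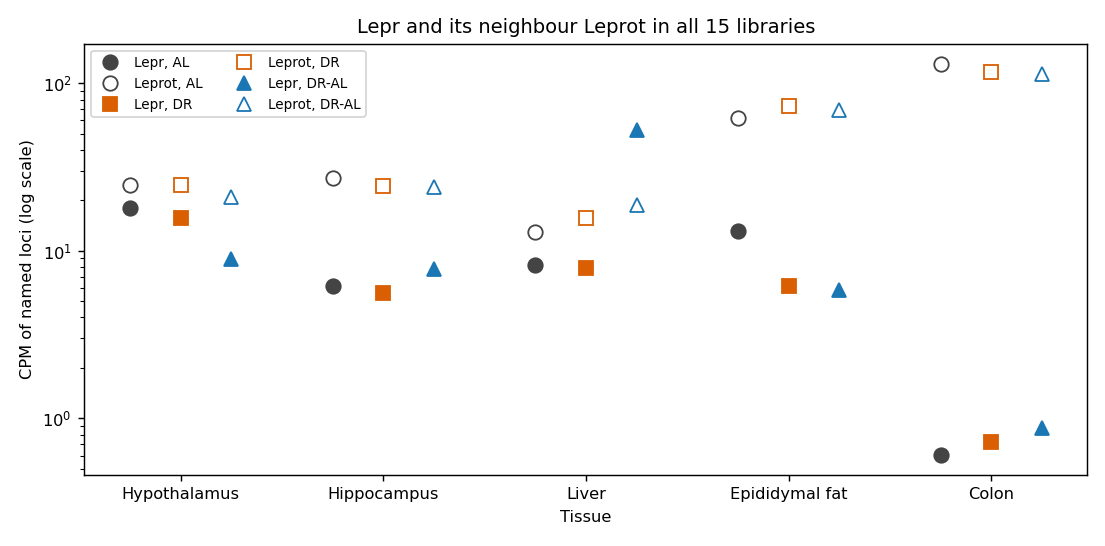
Level of Lepr (filled) and its upstream neighbour Leprot (open) in each of the 15 libraries, in CPM of named loci on a log scale (y axis), by tissue (x axis); circles, squares and triangles are AL, DR and DR-AL, 1 library each. In the liver the filled triangle (52.3 CPM) stands above the filled circle (8.25 CPM) and square (7.95 CPM). The open triangle (18.7 CPM) also lies above the open circle (13.0 CPM) and square (15.7 CPM), by a smaller ratio.

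The other receptors were close to the floor in the liver. Mc3r and Mc4r had 0 counts in each liver library, and Ghsr, Npy2r, Npy5r, Hcrtr1 and Mchr1 had at most 2. Npy1r had 5, 2 and 2 counts. Hcrtr2 had 11, 1 and 14 counts in the AL, DR and DR-AL liver, which passed the thresholds in DR against AL (log2 fold change -2.80, interval -8.70 to -0.49) and in DR-AL against DR (3.14, 0.92 to 9.04). The plus strand of Hcrtr2 held 8, 4 and 10 counts in the same libraries. Of the 8 receptor genes tested in the liver, 0 were called higher and 1 lower (Hcrtr2) in DR against AL, where 18% of all genes were called higher and 9.92% lower. DR-AL against AL had 1 called higher (Lepr) and 0 lower, beside 15% and 15.8%, and in DR-AL against DR 2 were called higher (Lepr and Hcrtr2) and 0 lower, beside 16.9% and 24%. With the size factors of DESeq, 50.6% rather than 64.5% of the genes called in DR against AL in the liver were higher, and in DR-AL against DR 51.1% rather than 41.3% were. The receptor genes called were the same in both.

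The epididymal fat libraries were unlike in content, and the part of this in the levels of the receptor genes was not tested. The hepatocyte list stood at 5771 CPM in the AL fat library, 49.5 in DR and 9.65 in DR-AL, with 7 of 7 markers detected called lower in each comparison against AL. The testis germ cell list stood at 3.55, 575 and 2942 CPM, with 7 of 7 called higher in DR-AL against AL. The adipocyte list stood at 30542, 23556 and 19162 CPM, with 1 of 7 called higher and 3 lower in DR and 0 higher and 6 lower in DR-AL against AL. The median over genes averaging 100 counts or more was 0.20 for DR and 0.25 for DR-AL against AL under the main scaling, and with the size factors of DESeq it moved by -0.19 and -0.34, so log2 values in fat are to be read against that shift.

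Lepr had 343 counts (13.1 CPM), 140 (6.13 CPM) and 160 (5.85 CPM) in the AL, DR and DR-AL fat libraries. It was called lower in DR against AL by -1.09 (interval -1.39 to -0.81) and in DR-AL against AL by -1.16 (-1.44 to -0.89). The AL liver library itself had 8.25 CPM of Lepr, and the part of hepatocyte RNA in the level of Lepr in the AL fat library was not tested. Leprot stood at 61.6, 73.1 and 69.0 CPM in the same libraries and was not called.

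The other receptor genes that were called in fat were higher, not lower. Npy2r had 20 counts (0.763 CPM), 58 (2.54 CPM) and 180 (6.58 CPM), with log2 fold changes of 1.71 (interval 0.98 to 2.55) for DR and 3.08 (2.44 to 3.85) for DR-AL against AL. Npy1r had 80 counts (3.05 CPM), 142 (6.22 CPM) and 164 (5.99 CPM), with 1.02 (0.62 to 1.44) and 0.97 (0.58 to 1.38). The deposited FPKM gave -0.49 and -0.22 for Npy1r in DR-AL against AL, with 0.1 and 1 added, and in the same comparison -2.13 and -1.14 for Lepr, 1.15 and 0.36 for Npy2r and 0.78 and 0.14 for Mchr1, whose sign was kept. The libraries of fat differed by 1.60 on the log2 scale in the ratio of CPM to FPKM over genes, whereas those of each other tissue differed by 0.12 or less. Mchr1 had 4, 34 and 40 counts, Hcrtr1 4, 8 and 23 counts and Mc4r 1, 11 and 8 counts. Their levels were at most 1.49 CPM. None of the calls in fat, Lepr included, was kept with the dispersion estimated from the 3 fat libraries, which put the coefficient of variation at 0.723. That estimate counts differences between the libraries in diet and content as variation.

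Of the 7 receptor genes tested in fat, 4 were called higher (Mc4r, Npy1r, Npy2r and Mchr1) and 1 lower (Lepr) in DR against AL, where 35.2% of all 20382 genes were called higher and 10.4% lower. DR-AL against AL had 5 called higher (Hcrtr1 in addition) and 1 lower (Lepr), beside 46% and 11.9%. In DR-AL against DR, 2 were called higher (Npy2r and Hcrtr1) and 0 lower, beside 38.3% and 13.3%. The share of genes called that were higher was 77.3%, 79.5% and 74.3% in these comparisons, and 61.2%, 57.5% and 62.9% with the size factors of DESeq, which lost Hcrtr1 in DR-AL against DR. With the TMM factors of edgeR these shares were 58.0%, 49.0% and 54.0%, and Mc4r was lost as well in DR-AL against AL. Mc3r, Npy5r and Hcrtr2 had 0 counts in each fat library, and Ghsr had 1 count in AL.

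In the colon, Npy1r was the only receptor gene with more than 24 counts in any library. It had 141 counts (5.31 CPM) in the AL, 280 (8.38 CPM) in the DR and 117 (4.67 CPM) in the DR-AL library. The DR library stood above the others, which overlapped within counting error. DR was above AL by 0.66 (interval 0.36 to 0.96) and DR-AL below DR by -0.84 (-1.17 to -0.53). Receptors for neuropeptide Y and peptide YY are known from enteric neurons and epithelium, and of the list of enteric neurons and enteroendocrine cells 0 of 7 were called higher and 1 lower (Chga) in DR against AL (392, 309 and 377 CPM in AL, DR and DR-AL). Of the adipocyte list 6 of 7 were called lower in DR against AL and 6 of 7 higher in DR-AL against DR, opposite to Npy1r (45.3, 22.1 and 35.6 CPM). The part of enteric and fat content in the level of Npy1r was not tested.

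Lepr had 16, 24 and 22 counts in the AL, DR and DR-AL colon and was not called. Npy5r passed the thresholds on 0, 4 and 0 counts and Mchr1 on 4, 3 and 0 counts, and the exact intervals of these calls include no difference, so they are counted here but are not beyond counting error. In DR against AL, 2 of the 10 genes were called higher (Npy1r and Npy5r) and 0 lower, beside 9.04% and 10.6% of all 18242 genes. DR-AL against AL had 0 called higher and 1 lower (Mchr1), beside 5.83% and 8.5%, and in DR-AL against DR 0 higher and 2 lower (Npy1r and Npy5r), beside 6.78% and 7.67%. With the exact test of edgeR at a coefficient of 0.1, the call of Npy1r was kept in DR-AL against DR and lost in DR against AL.

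**Figure D5:**
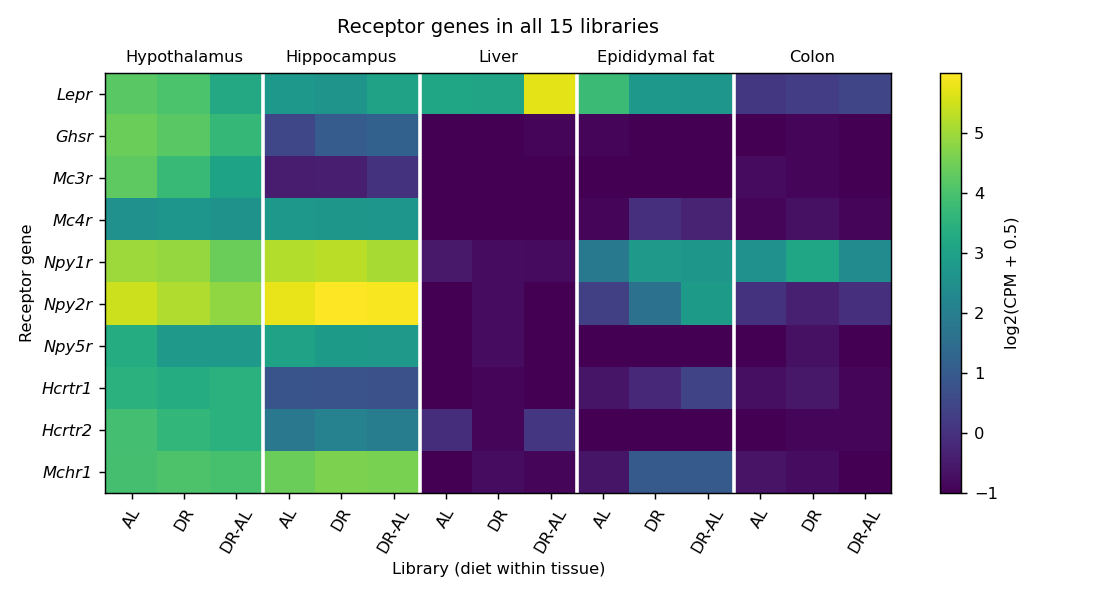
Level of each receptor gene (rows) in each of the 15 libraries (columns, diets within tissues) as log2(CPM + 0.5), shown by colour. The brain columns hold all 10 genes, with Ghsr, Mc3r and Hcrtr1 faint in the hippocampus. In the liver Lepr alone stands above the background, most in the DR-AL library. The highest rows are Lepr, Npy1r and Npy2r in fat and Npy1r in the colon.

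Across tissues, the order of mean CPM differed between the receptors. Ghsr and Mc3r were highest in the hypothalamus, and their levels there did not overlap with those of any other tissue (12.1 to 21.1 CPM for Ghsr against at most 1.75, and 7.85 to 18.8 CPM for Mc3r against at most 0.517). Hcrtr1 and Hcrtr2 were also highest in the hypothalamus, with 9.65 to 10.6 and 10.6 to 14.6 CPM, followed by the hippocampus without overlap. Npy1r, Npy2r and Mchr1 were highest in the hippocampus, again without overlap with the hypothalamus. Mc4r (5.84 to 6.17 CPM in hippocampus and 5.32 to 5.92 in hypothalamus) and Npy5r (6.32 to 7.70 and 6.31 to 9.60) overlapped between both brain regions. Lepr was the receptor gene whose tissues overlapped most: in order of their means, the range of the liver overlapped that of the hypothalamus, the hypothalamus that of fat and fat that of the hippocampus. The liver and hypothalamus ranges each lay above that of the hippocampus, and the colon, at 0.603 to 0.878 CPM, lay below all others.

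The genes whose pattern over the 15 libraries was most like that of each receptor gene were named for the 6 that averaged 100 counts or more, by Pearson's r of log2(CPM + 0.5) among 14089 genes. For Ghsr they were Gpr149 (r = 0.998), Scn9a (0.997) and Oprk1 (0.996), and for Hcrtr2 Glra3 (0.985), Gpr101 (0.983) and Adcyap1 (0.982). For Npy2r they were Ctxn1, Brsk1 and Slc8a2 (0.996 to 0.997), for Npy1r Ckap5, Fam168b and Exoc6b (0.991 to 0.996) and for Mchr1 Slc35f3, Elmod1 and Lingo1 (0.997 to 0.998). The values for Lepr were lower, at 0.933 for Grcc10, 0.931 for Fads6 and 0.928 for Tyw5. The 15 points are 5 tissues of 3 diets each and share pools of mice, so these correlations mostly describe differences between tissues.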

How the data were processed

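Strand-specific RNA-Seq of ribosome-depleted RNA was available for 15 libraries (5 tissues of 3 diets), each pooled from 5 mice per the study's methods. The deposited table gave raw read counts per locus, and the authors also deposited FPKM (fragments scaled by gene length and library total); 30 columns were used, and 0 columns of values had no sample. The study's methods name Strand software, removal of duplicate reads and mm10, whereas the submitters' processing notes list mm9 and DESeq2. Only 13.6% of the symbols found on the same chromosome overlapped their gene in GENCODE M21 (GRCm38), so positions in the table were not printed and those of the annotation were used.

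Loci without a gene name (0.258 to 1.39% of counts) were left out. The 10 most abundant genes took 3.05 to 14.0% of the counts of a library. CPM and log2 fold changes (0.5 added) were computed from the deposited counts of the named loci. Within a tissue, genes with at least 1 count were compared by the pairwise Z test of the study's methods on square roots of counts over the library total, with Benjamini-Hochberg adjustment (Python 3.11.15, numpy 2.4.6, pandas 2.3.3, scipy 1.17.1). There was 1 library per diet and tissue and no replicate, and the labels number none, so this test and the intervals cover counting error only. The 6 brain libraries were fitted together with region and diet as terms by the quasi-likelihood test of edgeR 4.0.16 in R 4.3.3 (TMM, low counts filtered), with DESeq2 1.42.0 as an alternative. Both tests were checked on simulated data. The counts simulated for the Z test held counting error only, so that check cannot speak to variation between pools.

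Alternatives were other scalings, a mean of at least 10 counts, a fold change of 2, the exact test of edgeR with its coefficient of variation set to 0.1 or estimated, FPKM with 0.1 or 1 added, and leaving out brain libraries. All 10 receptor genes are described. Other genes were named by size: the 2 with the largest absolute log2 fold change of each pathway list in each hypothalamus comparison, with a mean of at least 100 counts, and the 3 best correlated with a receptor gene. Further genes named beside a list count of 5 or fewer, and Nr5a1 and the markers, were chosen after their values were seen. The receptor genes and lists were chosen with earlier results of these data known.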

Additional observations from a re-analysis of the deposited data

Results flagged for a closer look

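The following log2 fold changes were called in opposite directions in different tissues, among receptor genes that averaged 10 counts or more in the tissue. In each case the difference between the tissues rests on 1 library per diet and tissue, no test with replicates was possible, and the difference was not tested beyond the counting intervals given for the brain.

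In DR-AL against AL, Lepr stood at -1.02 in the hypothalamus and -1.16 in epididymal fat and at 2.66 in the liver. Ghsr stood at -0.80 in the hypothalamus and 0.93 in the hippocampus. Npy1r was at -0.56 in the hypothalamus and 0.97 in fat, and Npy2r at -0.64 in the hypothalamus and 3.08 in fat, where the sign of Npy1r depended on the use of counts or FPKM.

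In DR-AL against DR, the hypothalamus value of Lepr was -0.82, whereas it was 0.46 in the hippocampus and 2.72 in the liver. Npy2r stood at -0.33 in the hypothalamus and 1.37 in fat.

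Below that mean, Npy5r (4 counts against 0 in DR against AL) and Mchr1 (0 against 4 in DR-AL against AL) in the colon were also called in the opposite direction to Npy5r in the hypothalamus and Mchr1 in fat.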

How the results depend on the processing

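Of 133 recomputed counts of called receptor genes, 95 were within 1.5 times the reported count and 38 were not. The 95 include counts of 0 that stayed 0, as in the hippocampus in DR against AL and for DR in the brain model. Of 270 recomputed fold changes 232 stayed within the counting interval, 36 moved out of it and 2 reversed. With a fold change of at least 2, the hypothalamus had 0 receptor genes called in DR against AL, 2 in DR-AL against AL and 0 in DR-AL against DR, the hippocampus 0 in DR-AL against AL and 0 in DR-AL against DR, and the colon 1 in DR against AL and 1 in DR-AL against DR. With a mean of at least 10 counts, the liver had 0 in DR against AL and 1 in DR-AL against DR, and the colon 1, 0 and 1 in the 3 comparisons. With the exact test of edgeR at a coefficient of variation of 0.1, the hypothalamus had 0, 3 and 1 and the colon 0, 0 and 1 in DR against AL, DR-AL against AL and DR-AL against DR. In the same test the hippocampus had 0 in both comparisons of DR-AL, the liver 0 in DR against AL and fat 1 in DR-AL against DR. With the dispersion estimated, the hypothalamus had 0, 2 and 0, the hippocampus 0 in both comparisons of DR-AL, the liver 0 in DR against AL and 1 in DR-AL against DR, and fat and colon 0 in each comparison. These exact tests add variation beyond counting error, which the Z test leaves out. The coefficient of 0.1 is assumed, and the estimated coefficients count differences between diets as variation, so neither measures variation between pools. With DESeq size factors or TMM factors fat had 1 in DR-AL against DR, as Hcrtr1 was lost, and the hypothalamus had 4, as Npy2r was lost. TMM factors gave the hypothalamus 3 in DR against AL, with Npy2r added. The reversed value was Npy1r in fat in DR-AL against AL, at -0.49 and -0.22 with FPKM and 0.1 or 1 added, and the cause was not tested. Lepr in the liver was called in DR-AL against AL under all 7 alternatives for counts.

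In the brain model, leaving out 1 library gave 7 to 9 receptor genes between the regions and 0 to 2 for the DR-AL effect of both regions. Those 2 (Lepr and Mc3r) came without the DR-AL hippocampus library. Without the diet term, which here is the replicate block, 9 were called between the regions. Between diets within a tissue no paired analysis was possible because each diet had 1 library. Depth limits Mc3r in the hippocampus (8 to 13 counts) and most receptor genes in liver, fat and colon.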
